A study of Homo sapiens with 12 samples.

Results

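Microtubules are hollow polymers of alpha and beta tubulin, and vertebrate cells carry several genes (isotypes) of each. Neurons are known for their own set of beta tubulins and for proteins that bind microtubules along axons and dendrites, and several of these genes are also expressed in glioma cells. The genes described here are the beta tubulins TUBB2A, TUBB2B, TUBB3 and TUBB6, the alpha tubulin TUBA1A, the microtubule-destabilizing protein stathmin (STMN1), the collapsin response mediator proteins DPYSL2 and DPYSL3, and the microtubule-associated proteins MAP1B and MAP2. These 10 genes, of 18665 genes with a probe named for 1 gene only, were selected on earlier results of these arrays, after TUBB2B had been seen far higher in one of the cell lines. The differences between the lines are therefore given for them as a description, without a test, and only the effects of co-culture were tested.

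RNA was measured on 12 Illumina BeadChips of human glioblastoma cell lines, with 3 arrays of biological replicates in each of 4 groups: U373 monoculture, U373 co-culture, U87MG monoculture and U87MG co-culture. Both lines came from the ATCC, and the labels name no drug. In co-culture the lines shared 3 ml of medium for 72 h across a porous membrane (0.4 µm), once the cells had adhered for 3 h, with U373 in the insert and U87MG in the bottom well. The monocultures were kept in the same chambers, so that the line and the chamber cannot be told apart, and glioblastoma is represented by these lines only. In bulk RNA, fewer cells of a kind and less RNA per cell cannot be told apart.

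Values are normalized signals on the log2 scale, converted from the deposited natural log values. A probe was called above background on an array when it passed that array's limit, which lay between 4.40 and 5.57. Replicate 2 of the U373 monoculture stood apart with the highest limit, at 5.57, and the smallest share of probes above it, 24.6% (other arrays 28.3% to 33.6%). Of the 19 probes of the 10 genes, 11 were above background on all 12 arrays, 4 on some and 4 on none. Levels of different probes cannot be compared with each other, since each probe binds with its own strength.

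The neuronal association of these genes was set against markers of neurons. Of 19 neuron markers with a probe, 12 were above background on no array in each of the 4 groups. SYP, SYN2, ELAVL3, ELAVL4, NEUROD2, NEUROD6, GAD2, SLC17A6, SLC17A7, CHGB and CELF4, which include genes of synaptic vesicles and of transmitter types, were at background on all 12 arrays. The rest of the list was not silent. A gene counted as above background on an array when at least 1 of its probes passed. UCHL1 and NCAM1 were above background on all 12 arrays, and SNAP25, SYT1, L1CAM and STMN2 on at least 1 array of each group. UCHL1 had group means of 11.29 to 11.82. The means over all probes of NCAM1 (4.14 to 4.41), STMN2 (3.92 to 4.12), SYT1 (4.31 to 4.70) and L1CAM (4.24 to 5.33) lay near or under the background limits. GAD1, the enzyme that makes GABA, was above background on every U87MG array and on no U373 array. SYN1 passed on 1 array of each U373 group and on no U87MG array. The number of neuron markers above background on an array ranged from 3 to 7 in U373 monoculture and from 6 to 7 in U87MG monoculture. The summed log2 level of the list ranged from 79.5 to 81.5 in the first and from 86.0 to 89.3 in the second. This sum includes the markers at background, so that it is no measure of the list as a whole. Of its 7 tested genes, 2 were higher and 2 lower in U373 monoculture. The widest differences among them were those of SNAP25 (-2.96) and GAD1 (at least 4.12-fold lower in U373). The higher ones were L1CAM (0.74) and UCHL1 (0.34). The part of this list in the results below was not tested.

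TUBB2A and TUBB2B are paralogs that lie next to each other on chromosome 6, on the minus strand, with no other protein-coding gene between them in the RefSeq annotation of GRCh38.p14. TUBB2B is a main beta tubulin of young neurons, and its mutations cause malformations of the cortex. Their upstream sequences are shown because these neighbours were both higher in U373. The 250 bases before the start of each gene are printed from RefSeq, TUBB2A at chr6:3157545-3157794 and TUBB2B at chr6:3227654-3227903, read 5′ to 3′ on the minus strand. Capitals mark TATAAA and ATAAAAG (forms of the TATA box), CCAAT (the CCAAT box), GGGCGG (the GC box) and ACGTCA (a part of the cyclic AMP response element), on either strand.
TUBB2A: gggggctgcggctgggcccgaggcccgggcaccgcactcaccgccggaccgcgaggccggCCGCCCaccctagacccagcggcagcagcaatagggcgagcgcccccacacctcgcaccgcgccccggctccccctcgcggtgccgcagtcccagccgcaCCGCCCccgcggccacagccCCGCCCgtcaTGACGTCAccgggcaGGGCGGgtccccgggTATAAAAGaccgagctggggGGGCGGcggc
TUBB2B: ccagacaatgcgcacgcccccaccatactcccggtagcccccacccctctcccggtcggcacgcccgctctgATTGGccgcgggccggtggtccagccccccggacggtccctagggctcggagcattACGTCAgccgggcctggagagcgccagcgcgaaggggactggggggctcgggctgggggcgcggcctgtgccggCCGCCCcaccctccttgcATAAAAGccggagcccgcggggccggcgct

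Windows from 250 bases before to 50 after the start were searched for these motifs on both strands. Both genes held ATAAAAG close to the start, first base 29 bases before it in TUBB2A and 30 bases before it in TUBB2B, a motif present in 4.66% of all 35116 windows. In TUBB2A it overlaps TATAAA, found in 11.5% of windows and absent from the window of TUBB2B. Both held ACGTCA (7.98% of windows), 122 bases before the start in TUBB2B and within a palindromic TGACGTCA (1.85% of windows) 60 bases before it in TUBB2A. TUBB2A had 5 matches of GGGCGG and TUBB2B had 1, a motif found in 45.0% of windows. CCAAT, found in 34.6% of windows, matched TUBB2B but not TUBB2A. The aligned windows were identical at 165 of 316 columns, and their G and C content was 79.0% in TUBB2A and 74.7% in TUBB2B against a median of 58.7%. Of all 10 genes, 9 have a window. ATAAAAG occurred in 3 of these genes (TUBB2A, TUBB2B and MAP1B) and ACGTCA in 2, and such letters are a description and not a site of binding.

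TUBB2B had the widest difference of the 10 genes. Its single probe gave 11.98, 12.11 and 11.90 on the 3 arrays of U373 monoculture and 3.70, 4.08 and 3.60 on those of U87MG monoculture. In co-culture it gave 11.72, 11.71 and 11.45 in U373 and 5.08, 3.77 and 4.27 in U87MG. The probe was thus bright on every U373 array and not well above background on any U87MG monoculture array, and U87MG co-culture replicate 1 was the only U87MG array on which it passed the limit. The measured monoculture difference was 8.20 (SE 0.25), and because U87MG gives only a bound, TUBB2B was at least 139.8-fold higher in U373. This bound sets the mean of U373 against the lowest signal above background on each U87MG array. In co-culture the measured difference of TUBB2B was 7.25 (SE 0.25), with 1 of 3 U87MG arrays above background.

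TUBB2A, a beta tubulin found in many tissues and abundant in brain, was higher in U373 with both of its probes. The first probe gave 10.01, 10.31 and 10.09 in U373 monoculture and 7.07, 6.69 and 7.55 in U87MG monoculture, a difference of 3.03 (SE 0.20). The second gave 8.40, 8.66 and 8.29 against 5.44, 5.39 and 6.35, a difference of 2.72 (SE 0.28). TUBB2A was above background on all 12 arrays, so that U87MG had a measured level of this gene where TUBB2B was at background. The mean of the probes differed by 2.88 (SE 0.22) in monoculture, or 7.35-fold, and by 2.80 (SE 0.22) in co-culture. The coding sequences of these paralogs are nearly alike, and whether the TUBB2A probes also take up TUBB2B RNA was not tested, since the probe sequences were not used here.

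The remaining beta tubulins of the set gave other values. TUBB6, a beta tubulin expressed outside the nervous system, was lower in U373. Its first probe gave 10.03, 10.10 and 9.91 in U373 monoculture against 11.46, 11.37 and 11.43 in U87MG monoculture, a difference of -1.41 (SE 0.19). Its second probe gave 7.82, 8.04 and 8.41 against 10.52, 10.44 and 10.59, a difference of -2.43 (SE 0.18). Both probes placed every U373 array under every U87MG array, and they disagreed on the size. The mean of the probes differed by -1.92 (SE 0.14) in monoculture and by -1.89 (SE 0.14) in co-culture.

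TUBB3, the beta tubulin whose protein is used as a marker of neurons, overlapped between the lines in monoculture. It gave 10.82, 11.27 and 10.88 in U373 monoculture and 11.07, 10.89 and 10.68 in U87MG monoculture, and these groups overlapped with a difference of 0.11 (SE 0.18), or -0.03 to 0.21 when 1 array was left out. In co-culture it gave 11.27, 10.79 and 10.76 in U373 and 10.33, 10.55 and 10.69 in U87MG. There the 3 U373 arrays lay above the 3 U87MG arrays, with a difference of 0.42 (SE 0.18). TUBB3 was above background on all 12 arrays, as was TUBA1A, a main alpha tubulin of the developing brain. The 2 probes of TUBA1A ranged from 11.60 to 12.32 and from 12.37 to 13.11 over the 12 arrays. Their mean differed by 0.04 (SE 0.16) in monoculture and by 0.25 (SE 0.16) in co-culture, and the groups overlapped in both.

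**Figure D1:**
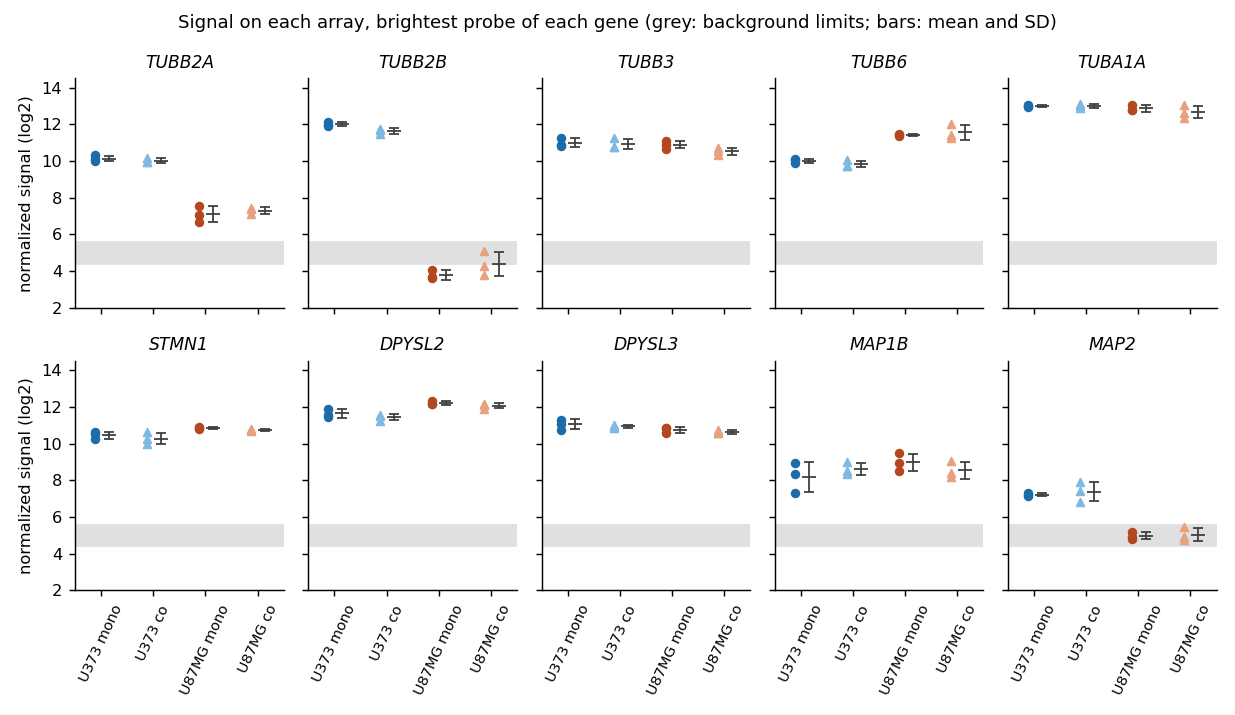
Normalized signal (log2) of the brightest probe of each of the 10 genes, 1 panel per gene, with 1 point per array, the mean and SD of 3 arrays beside the points, and a grey band for the background limits of 4.40 to 5.57. The U87MG points of TUBB2B and MAP2 lie in or under the band and the U373 points above it, while in the TUBB6 panel the U87MG points are the higher ones.

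MAP2, which binds microtubules in the dendrites of neurons, was higher in U373 with the 2 of its 4 probes that were above background on any array. The first of these gave 7.16, 7.32 and 7.18 in U373 monoculture and 5.18, 4.92 and 4.80 in U87MG monoculture. The other gave 7.36, 7.06 and 7.27 against 5.18, 5.01 and 4.13. Each of the 2 was above background on all 6 U373 arrays but on 1 of 3 U87MG monoculture arrays and 2 of 3 U87MG co-culture arrays. Their differences in monoculture were 2.25 (SE 0.24) and 2.46 (SE 0.26), and in co-culture 2.34 and 2.49. The 2 remaining probes were at background on all 12 arrays, and averaging all 4 gave the smaller difference of 1.37 (SE 0.15).

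MAP1B, which binds microtubules in growing axons, had the widest spread between replicates. It gave 8.35, 7.30 and 8.92 in U373 monoculture and 9.48, 8.92 and 8.52 in U87MG monoculture. The lowest value, 7.30, came from replicate 2 of U373 monoculture, the array with the highest background limit. The groups overlapped, with differences of -0.79 (SE 0.35) in monoculture and 0.08 (SE 0.35) in co-culture. The monoculture difference of MAP1B ran from -1.15 to -0.34 when 1 array was left out, with -0.34 without U373 monoculture replicate 2, -1.15 without U373 monoculture replicate 3 and -0.53 without U87MG monoculture replicate 1.

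STMN1, which takes up tubulin dimers and promotes the shortening of microtubules, was lower in U373 with both of the probes that were above background. The brighter probe gave 10.62, 10.25 and 10.50 in U373 monoculture and 10.89, 10.86 and 10.78 in U87MG monoculture, a difference of -0.39 (SE 0.18). The other gave 5.86, 5.32 and 6.32 against 7.29, 7.57 and 7.04, a difference of -1.47 (SE 0.24), and in U373 monoculture it was above background on 2 of 3 arrays. The remaining 2 STMN1 probes were at background on all arrays.

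The collapsin response mediator proteins bind tubulin and act in axon growth. DPYSL2 gave 11.90, 11.47 and 11.55 in U373 monoculture and 12.34, 12.16 and 12.16 in U87MG monoculture, with every U373 array below every U87MG array and a difference of -0.58 (SE 0.15). Its difference in co-culture was -0.62 (SE 0.15). DPYSL3 gave 10.75, 11.08 and 11.29 in U373 monoculture and 10.85, 10.83 and 10.57 in U87MG monoculture, where the groups overlapped with a difference of 0.29 (SE 0.16), or 0.16 to 0.44 when 1 array was left out. In co-culture its U373 arrays lay above its U87MG arrays, with a difference of 0.30 (SE 0.16).

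By the mean of the probes, 3 of the 10 genes (TUBB2A, TUBB2B and MAP2) were higher in U373 monoculture without overlap, 3 (TUBB6, STMN1 and DPYSL2) were lower and 4 overlapped. Among all tested genes the monoculture arrays of the lines did not overlap for 64.2%, and the genes were selected on this contrast, so nothing is read from their count. In co-culture 5 were higher, 3 lower and 2 overlapped, against 62.7% of all tested genes without overlap. The median difference of the 10 genes was 0.08 in monoculture and 0.28 in co-culture, against -0.05 and -0.07 over all tested genes.

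**Figure D2:**
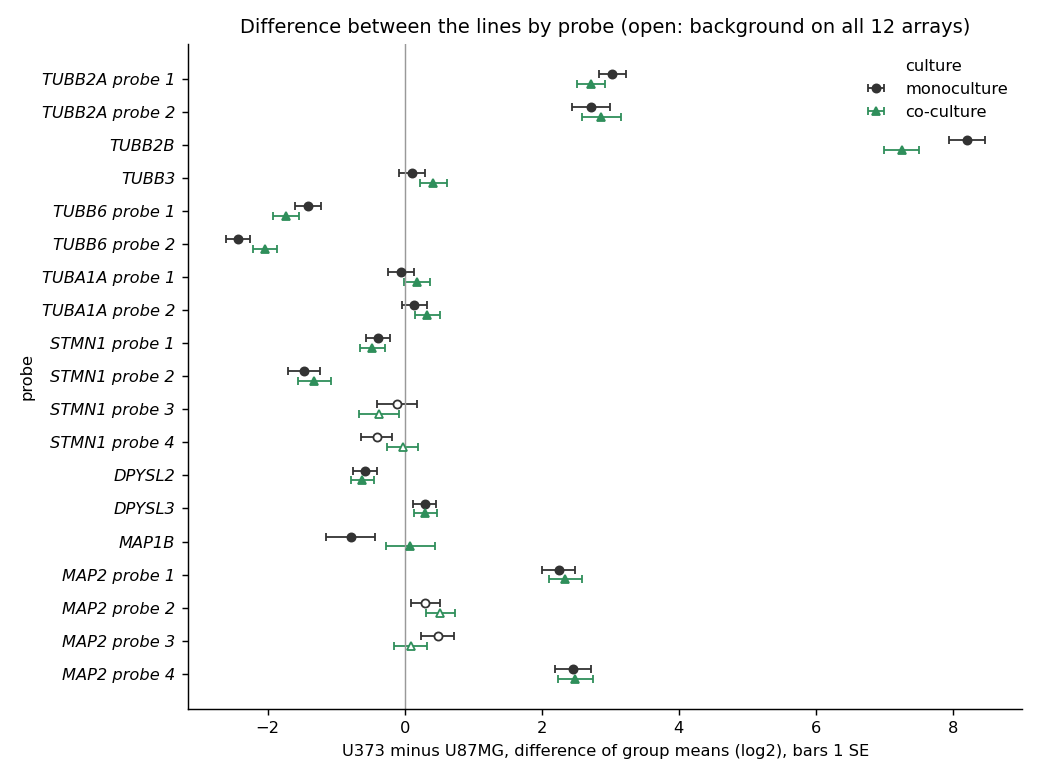
Difference between the lines (U373 minus U87MG, log2, bars 1 SE) for each of the 19 probes, with circles for monoculture and triangles for co-culture, and open symbols for the 4 probes at background on all 12 arrays. The TUBB2B probe stands at 8.20 and 7.25, the TUBB2A probes and 2 MAP2 probes between 2.25 and 3.03, and both TUBB6 probes left of 0.

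The next question was whether sharing medium with the other line changed these genes. In U373, none of the 10 genes passed the limma test at an adjusted p of 0.05 between co-culture and monoculture (0 of 10, and 0 of 10 at an unadjusted p under 0.05). Of all 10570 tested genes 12 (0.114%) passed, and 1015 had an unadjusted p under 0.05. The differences ranged from -0.37 for TUBB2B to 0.42 for MAP1B, and adjusted p-values from 0.645 to 0.998. TUBB2B was the one gene whose U373 groups did not overlap, with all 3 co-culture arrays under all 3 monoculture arrays, where 11.9% of all tested genes did not overlap. Its difference of -0.37 had a 95% interval of -0.90 to 0.16 and an adjusted p of 0.645. For MAP1B the interval was -0.33 to 1.17, and without U373 monoculture replicate 2 its difference was -0.02.

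In U87MG, none of the 10 genes passed either, and among all tested genes limma called 0 (0.0%), with 741 at an unadjusted p under 0.05. The differences ranged from -0.44 for MAP1B to 0.58 for TUBB2B, and adjusted p-values from 0.700 to 0.985. The TUBB2B difference had a 95% interval of 0.05 to 1.11, an unadjusted p of 0.0346 and an adjusted p of 0.700. Its arrays overlapped, and its values lay at background on all U87MG arrays but co-culture replicate 1, so that no change in level can be read from it. TUBB3 differed by -0.36 (95% interval -0.74 to 0.03, adjusted p = 0.724). DPYSL2 was the one gene without overlap, lower in co-culture by -0.16 (95% interval -0.49 to 0.16, adjusted p = 0.830), where 14.4% of all tested genes did not overlap.

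The effect of co-culture in U373 minus that in U87MG was not past the test for any of the 10 genes, and 1 of all tested genes (0.00946%) passed, with 667 at an unadjusted p under 0.05. MAP1B stood at 0.86 (95% interval -0.20 to 1.92, adjusted p = 0.829). The fitted value of TUBB2B was -0.95 (95% interval -1.70 to -0.20, unadjusted p = 0.0164, adjusted p = 0.691). It contains the U87MG difference of 0.58, measured at background on 5 of 6 arrays and 0.22 without U87MG co-culture replicate 1, so that no difference in effect can be read from it. With 3 arrays a group, the half-width of the 95% intervals within a line ran from 0.31 to 0.75. Effects within these widths were not detectable here. Larger ones could also go uncalled, since the intervals are not adjusted for the number of genes tested and the calls are. The U87MG difference of TUBB2B, with an interval that leaves out 0, had an adjusted p of 0.700 in the limma test.

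**Figure D3:**
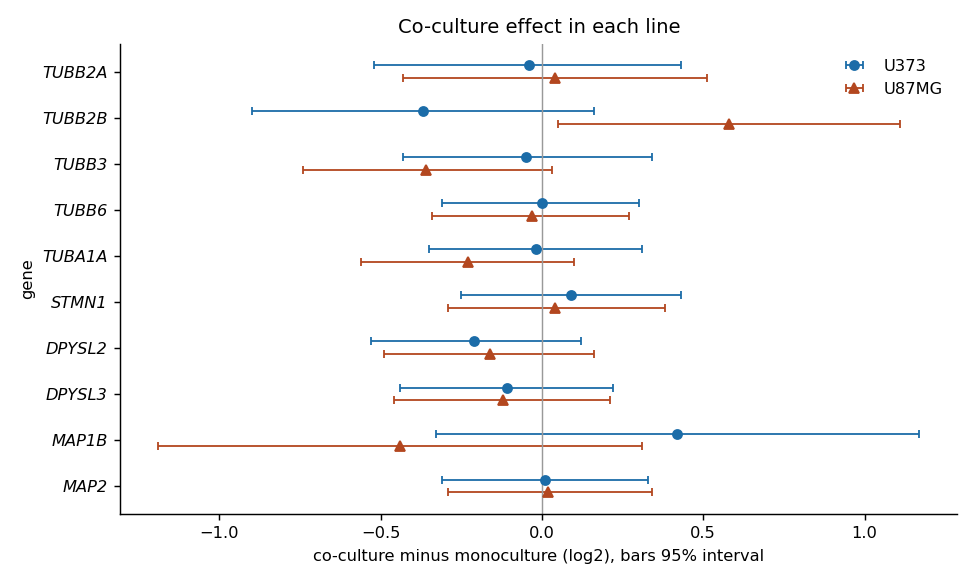
Co-culture minus monoculture (log2) for each gene in U373 (circles) and U87MG (triangles), mean of the probes, with 95% intervals from the limma fit on 3 arrays a group. All intervals reach 0 except that of TUBB2B in U87MG (0.05 to 1.11), which rests on values at background, and those of MAP1B are the widest.

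Other genes were examined through 16 lists, which hold 233 genes besides these 10. The lists cover the microtubule system, growth cone and actin genes, intermediate filaments, markers of neurons and astrocytes, cell cycle genes and kinases. Of 164 genes tested, 99 differed between the monocultures, 49 higher and 50 lower in U373. That is 60.4%, against 59.3% of all tested genes (27.9% higher and 31.4% lower in U373), and the median difference was -0.03 against -0.05. None of these genes was called for co-culture in either line.

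Among the other alpha tubulins, 4 of 5 tested genes were lower in U373 and none was higher. TUBA4A had by far the widest difference, -3.32 (SE 0.31, adjusted p = 1.9e-07), with a range of 5.07 to 5.60 in U373 and 8.52 to 8.81 in U87MG. TUBA1C (-0.53, adjusted p = 0.0118) and TUBA3D (-0.50, adjusted p = 0.0103) were lower by less. The TUBA3D means, 5.01 in U373 and 5.51 in U87MG monoculture, lay within the range of the background limits. In co-culture TUBA3D differed between the lines by -0.07 and TUBA1C by -0.41. TUBA3E was also called, but it was not well above background on any U373 array and was above it on 2 of 3 U87MG monoculture arrays. No fold or p-value is given for it. TUBA1B did not pass (-0.13, adjusted p = 0.534). TUBA1C lost its call without U373 monoculture replicate 2 (adjusted p = 0.0579) or U87MG monoculture replicate 1 (0.0526). TUBA3E lost its call without U373 monoculture replicate 1 or 2 or U87MG monoculture replicate 3.

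Of the other beta tubulins, TUBB was higher (0.39, SE 0.13, adjusted p = 0.0173) and TUBB4B lower in U373 (-0.73, SE 0.16, adjusted p = 0.00133). TUBB lost its call without U373 monoculture replicate 1 (adjusted p = 0.0546) or 3 (0.0553), or U87MG monoculture replicate 2 (0.0589) or 3 (0.0518). The alpha and beta tubulin genes are close copies of each other, and what their probes share was not tested. Of the gamma, delta and epsilon tubulins and their ring proteins, 1 of 8 was higher, the nucleation protein TUBG2 at 0.58 (adjusted p = 0.00571), and 2 were lower. These were the ring proteins TUBGCP2 at -0.78 (adjusted p = 0.000112) and TUBGCP3, at background on every U373 array and at least 1.13-fold lower. Of the factors that fold and pair tubulin, 2 of 19 were higher and 4 lower. The folding cofactor TBCC differed by 1.29 (adjusted p = 6.1e-06) and TBCE by -1.06 (adjusted p = 4.37e-05).

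Further lists hold relatives of the remaining members. Of the other microtubule-associated proteins, 6 of 10 were higher and 2 lower. MAP6D1, a relative of the stabilizing protein MAP6, differed by 2.09 (SE 0.24, adjusted p = 2.19e-06) and the doublecortin-like kinase DCLK1 by 1.25 (SE 0.16, adjusted p = 7.02e-06), while MAP1A, a relative of MAP1B, differed by -1.04 (SE 0.25, adjusted p = 0.00235). DPYSL4, the one other collapsin response mediator protein above background, differed by 2.23 (SE 0.20, adjusted p = 1.64e-07). Of the other stathmins and severing enzymes, 1 of 10 was higher and 2 were lower, and the neuronal stathmin STMN2 did not pass (-0.21, adjusted p = 0.319). The STMN2 means over 2 probes, 3.92 in U373 and 4.12 in U87MG monoculture, lay under the background limits. A like level in both lines cannot be read from them.

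Enzymes that modify tubulin differed in both directions, with 7 of 14 higher and 3 lower in U373. The deacetylase HDAC6 differed by 1.98 (SE 0.13, adjusted p = 4.86e-09) and the acetyltransferase ATAT1 by 0.74 (SE 0.15, adjusted p = 0.000492). The ATAT1 means over 3 probes, 4.95 in U373 and 4.21 in U87MG, lay near or under the background limits. TTL, which adds tyrosine back to alpha tubulin, differed by -1.49 (SE 0.15, adjusted p = 4.55e-07). Of the transport motors, 3 of 15 were higher and 8 lower. The dynein intermediate chain DYNC1I1, known best from neurons, differed by 2.91 (SE 0.16, adjusted p = 3.37e-10), and the kinesin light chain KLC1 by -1.69 (SE 0.13, adjusted p = 2.4e-08).

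Growth cone and neuronal actin genes also differed in both directions, with 8 of 13 higher and 3 lower in U373. MARCKSL1, an actin-binding substrate of protein kinase C, differed by 2.72 (SE 0.18, adjusted p = 3.64e-09). PALM was at background on every U87MG array and at least 3.57-fold higher in U373. BASP1, a membrane protein of growth cones, was lower by far, at -4.31 (SE 0.31, adjusted p = 8.77e-09). GAP43, another growth cone protein, was lower by a measured -1.13 (adjusted p = 0.000262). It was above background on 1 of 3 U373 monoculture arrays, with means of 3.94 in U373 and 5.07 in U87MG, so that no fold is given. Of the intermediate filaments of neurons and glia, 4 of 5 tested were higher in U373 and none lower. GFAP, the filament of astrocytes, ranged from 9.13 to 9.88 in U373 monoculture, was not well above background on any U87MG array and was at least 25.1-fold higher. The neuron markers had 2 of 7 tested genes higher and 2 lower. SNAP25, a protein of transmitter release, differed by -2.96 (adjusted p = 3.69e-10), and GAD1, the enzyme that makes GABA, was at least 4.12-fold lower in U373. L1CAM differed by 0.74 (adjusted p = 0.0175) and UCHL1 by 0.34 (adjusted p = 0.0394). UCHL1 lost its call without U373 monoculture replicate 2 (adjusted p = 0.0766) or 3 (0.132), or U87MG monoculture replicate 2 (0.087) or 3 (0.114). It also lost it without the filter on dim genes (0.0888) and in a fit of only the 2 groups compared (0.0755). The list of 10 astrocyte markers holds GFAP as well. AQP4, S100B, SLC1A2, ALDH1L1 and GLUL were above background on no array of either line and were not tested. Of the 5 tested astrocyte markers, 3 were higher and 2 lower. The glycolytic enzyme ALDOC differed by -4.73 (SE 0.24, adjusted p = 1.94e-10), the gap junction protein GJA1 by -0.67 (adjusted p = 0.00626) and the glutamate transporter SLC1A3 by 2.57 (adjusted p = 5.56e-10). Of the proteins that bind the ends of microtubules, 4 of 16 were higher and 4 lower, and of the kinases known to act on the members, 1 of 12 was higher and 4 were lower.

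**Figure D4:**
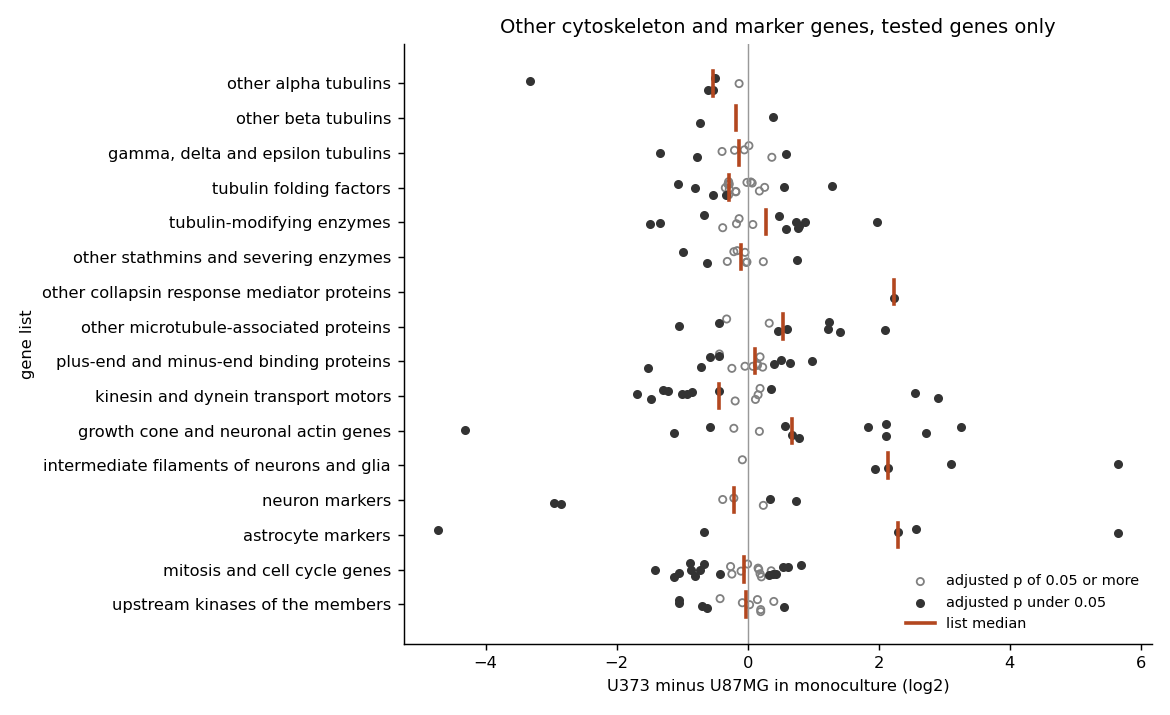
Difference between the monocultures (U373 minus U87MG, log2) of each tested gene in 16 lists, with filled points for an adjusted p under 0.05, open points for the rest and a bar at each list's median. The medians lie between -0.53 (other alpha tubulins) and 2.29 (astrocyte markers), and over all tested genes the median is -0.05.

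The mitosis and cell cycle genes give the proliferative background of the tubulins. All 24 were tested, 6 were higher and 9 lower in U373, and the median difference was -0.05. Between 23 and 24 of them were above background on every array. The summed log2 level of the list ranged from 213.5 to 219.3 in U373 monoculture and from 218.4 to 221.5 in U87MG monoculture. Its part in the tubulin values was not tested.

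The genes whose pattern over the 12 arrays was most like that of TUBB2B were HES4, GPC4, CMTM8, SFRP1 and ACTG2, with Pearson correlations of 0.999 to 0.998. This is a description: the 12 arrays fall into 2 lines, and 122 of 10569 genes had a correlation over 0.99. GPC4 had group means of 10.30 and 10.23 in U373 and 3.25 and 3.45 in U87MG, in monoculture and co-culture.

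The position of TUBB2A and TUBB2B was followed to their neighbours, which were chosen after their values had been seen and carry no test. The nearest tested gene on one side, BPHL, was higher in U373 monoculture by 1.89, and the nearest on the other, SLC22A23, by 1.35. Of 20 tested protein-coding genes, 10 on each side, 14 were higher in U373 monoculture without overlap, 3 were lower and 3 overlapped, with a median difference of 0.75. Over all tested genes 30.2% were higher without overlap. FOXF2 (4.42) was the highest of these neighbours and SERPINB1 (-4.53) and FAM50B (-3.38) the lowest, against 8.20 for TUBB2B itself.

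**Figure D5:**
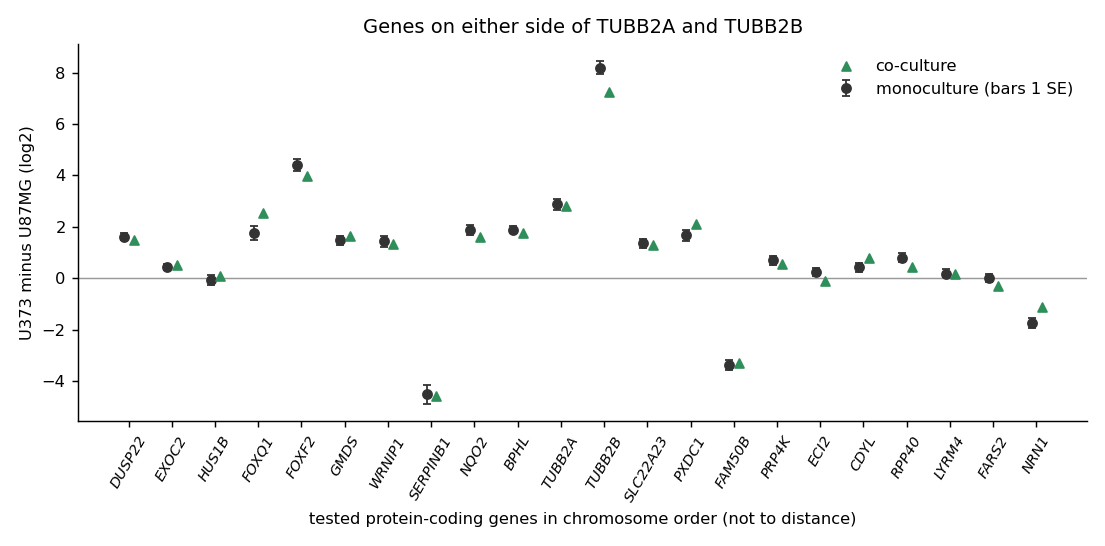
Difference between the lines (U373 minus U87MG, log2) of TUBB2A, TUBB2B and 10 tested protein-coding genes on each side, in their order on chromosome 6 and not to distance, with circles for monoculture (bars 1 SE) and triangles for co-culture. TUBB2B stands at 8.20, most neighbours lie between 0 and 1.89, and SERPINB1 and FAM50B lie far under 0.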

How the data were processed

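RNA of 12 cultures was labelled with an amplification kit and hybridized to Illumina HumanWG-6 v3 BeadChips. The authors deposited probe values on a natural log scale after variance stabilization normalization of the signals; the base is not stated and was taken as e, since the highest value of 10.266 is a signal of 28738.7 on that base and 1231.3 on base 2. For the log2 scale each value was divided by 0.6931, the natural log of 2. On base 2, every difference would be 0.6931 times as large, with the tests unchanged. A second table of signals before normalization has columns without sample names and was not used.

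Probes named for 1 gene (27578 of 48803) were averaged per gene. The background limit of an array lay 3 SD above the mode of its values, with the SD taken from the lower side of that mode. A gene was tested if a probe passed it on 3 arrays, which 10570 genes and all 10 members did. A bound ("at least") sets the mean of the bright group against the lowest signal above background, or the probe's own where higher. The number of arrays limits the precision.

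Group means were fitted with limma 3.58.1 in R 4.3.3 (14.9 moderated degrees of freedom), with Benjamini-Hochberg adjustment over all tested genes. The fit was run on simulated data, in which 200 of the 10570 genes were changed by 1 or 2 (log2) in U373 co-culture. It recovered 88% of the changes of 1 and 99% of those of 2, with 15 false calls. The simulated noise was normal and independent between arrays, as limma assumes, so that this checks the code only. The members and lists were chosen with earlier results of these data known. Named were all members, all tested alpha and beta tubulins, up to 4 called genes a list (the 2 largest rises and 2 largest falls among genes that passed the background limit on each of the 3 arrays of the brighter line), and the 5 genes most like TUBB2B, of which some are left unprinted. ATAT1, STMN2 and L1CAM were chosen after their values were seen.

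Whether the replicate numbers pair the arrays was checked through the deviations of each array from its group mean. The correlation of same-numbered arrays was over 0.1 in each pair between the monocultures (0.115 to 0.207), between the U87MG cultures (0.129 to 0.178) and between the co-cultures (0.132 to 0.167). It was not in the other comparisons. Between the U373 cultures it ran from -0.101 to 0.56, where different-numbered arrays ran from -0.587 to 0.421. Between U373 monoculture and U87MG co-culture it ran from 0.00731 to 0.0645, and between U373 co-culture and U87MG monoculture from 0.0158 to 0.22. No label names a shared day. Promoter windows came from RefSeq on GRCh38.p14.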

Additional observations from a re-analysis of the deposited data

How the results depend on the processing

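The alternatives were a further quantile normalization, no filter on dim genes, background limits of 2 and 5 SD, the brightest probe of each gene, a trended and robust variance, a fit of only the 2 groups compared, the replicate block and the omission of each array in turn. Under all of them 0 of the 10 genes were called for co-culture in either line. Under those that could be run for the difference of its effects, all but the fit of 2 groups, 0 were called as well. The wider lists had 99 genes called between the monocultures, 91 to 101 under the alternatives on all arrays (101 with the replicate block) and 84 to 99 without 1 array. In co-culture they had 0, and 1 (MTCL1, at 0.97 and 0.87 in U373) without U373 monoculture replicate 3 or U373 co-culture replicate 1. Over all tested genes, the 12 calls in U373 co-culture became 3 to 23, and 3 to 159 without 1 array, the 159 without U373 co-culture replicate 1; those in U87MG became 0 to 3, and those for the difference of effects 0 to 2. With the replicate block the counts were 23, 0 and 2, and it changed no call of the 10 genes. The TUBB2B difference between monocultures was 8.17 after quantile normalization and 8.11 to 8.35 without 1 array, and 6 to 7 members did not overlap. Averaging probes set the size for MAP2 (1.37, or 2.25 and 2.46 by single probes), TUBB6 (-1.92, or -1.41 and -2.43) and STMN1 (-0.60, or -0.39 and -1.47). Co-culture effects near 0 changed sign, none being called. Quantile normalization turned TUBB2A (-0.03) and STMN1 (-0.03) in U87MG and TUBA1A (0.05) and MAP2 (-0.07) in U373. The brightest probe turned TUBB6 in U87MG (0.14) and STMN1 in U373 (-0.18) and U87MG (-0.10). Without 1 array, effects in U373 ran from -0.15 to 0.08 for TUBB2A, -0.21 to 0.09 for TUBB3, -0.06 to 0.05 for TUBB6, -0.09 to 0.07 for TUBA1A, -0.10 to 0.21 for STMN1, -0.26 to 0.02 for DPYSL3, -0.02 to 0.79 for MAP1B and -0.07 to 0.11 for MAP2. In U87MG they ran from -0.15 to 0.31 for TUBB2A, -0.15 to 0.09 for TUBB6 and -0.09 to 0.10 for MAP2. The cause was not tested. Values near the background limit, as those of TUBB2B in U87MG, have no order.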
